A study of Sus scrofa with 85 samples.

Results

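A set of genes, the top 150 by the rule below less 1 that was left out, was followed among 31907 genes counted across myocardial infarction (MI) in swine. The genes were chosen from the counts themselves, because their mean level in the infarcted region was higher at 1–3 h than at the other timepoints used for the choice. For each gene the group mean of log2(CPM + 1), where CPM is counts per 1000000 counts of the library, was taken at 1–3 h and set against the highest of the means at baseline, 2 days and 14 days in the apical (infarcted) region. The 150 genes with the largest margin were taken from the 9272 genes with a mean of at least 3 at 1–3 h and a mean in blood less than 3 above baseline, and 1 of the 150 was left out. The levels in these 4 apical groups and the mean over blood therefore describe the choice and are not tested below.

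The study placed a balloon in the distal left anterior descending artery of 3 female mixed-breed Yorkshire-Swedish farm pigs (swine 1640, 1644 and 5385), kept it inflated for an hour, and then let blood return. Tiny endomyocardial biopsies (micro-EMB) of the left ventricle were taken before the occlusion (baseline) and at 0–1 h, which is the hour of occlusion. More were taken at 1–3 h, which follows reperfusion, and after 2 and 14 days. After baseline they were aimed at the apical region and at a lateral region outside the infarct. Blood was drawn from the same animals, and the pigs were under anaesthesia at every sampling. Of 85 libraries, 62 from micro-EMB and 23 from blood, 57 (45 and 12) were used. These had a total of at least 1000000 counts, with 7 to 60% of the counts in the 10 most counted genes. The study also left out outlier samples rich in collagen transcripts as fibrous, and libraries of that kind were kept here unless stated.

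The apical region gave 4 usable libraries at baseline, 5 at 0–1 h, 9 at 1–3 h (3 from each swine), 4 at 2 days and 7 at 14 days. The lateral region gave 3 at 0–1 h (1 from each swine), 3 at 1–3 h (2 from swine 1644 and 1 from swine 5385), 4 at 2 days and 6 at 14 days, and none at baseline. Blood gave 1 at baseline, 2 at 1–3 h, 4 at 2 days and 5 at 14 days. Baseline biopsies carry the label apical, although they were taken before the infarct and, by the study's account, without aim at a region. The usable libraries held 3499443 to 16659110 counts, with a median of 7782629. Libraries from the same swine are repeated samples of 3 animals, so the p-values below measure the spread between libraries. In whole biopsies a lower share of a cell type cannot be told apart from less RNA per cell.

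Cells that meet stretch, injury, low oxygen or returning blood switch on immediate early genes within minutes. These genes need no new protein for their transcription, and many encode transcription factors of the FOS, EGR and NR4A families that act on a following set of genes. Feedback genes such as the phosphatase DUSP1 and the mRNA-decay factor ZFP36 rise with them and end the response. In injured heart and vessel walls the same hours bring genes of clotting control, matrix enzymes, chaperones and cardiac stress proteins.

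The set holds members of each of these classes. Among the members with the largest margins are MAFF (a small MAF transcription factor, margin 3.82), ARC (an activity-regulated immediate early gene, 3.54), FOSL1 (an AP-1 subunit, 3.54), ERRFI1 (an inhibitor of the EGF receptor, 3.32) and CRACDL (3.31). PDK4 (a kinase that holds back glucose oxidation, 3.10), THBS1 (thrombospondin 1, 2.89), SRXN1 (sulfiredoxin, 2.83) and LMCD1 (a LIM-domain regulator in heart muscle, 2.80) follow. At the threshold, EMP1, FHIP1A and ITPRIP stood just inside, each at 1.29 to 1.30, and ADGRG2 (1.29), SERTAD1 (1.29) and ITGA5 (1.28) just outside. A gene symbol was paired with 130 of the identifiers and 19 had none. HSP70.2, an inducible heat shock protein gene, has near-identical copies, so its reads may have been split between them. BICDL2 and THOC6 are 27 bases apart on chromosome 3 and run towards each other, so with counting that ignores strand their values are uncertain.

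The members were shorter than the genes within the limits of the rule, but close in length to protein-coding genes at large. RefSeq gave a protein-coding gene model on Sscrofa11.1 for all but 24 members, with a median of 7 exons and a median span of 21489 bases. The 7744 matched genes within the same level and blood limits had a median of 12 exons and 45572 bases. All protein-coding genes had a median of 8 exons and 20710 bases. Genes with at most 4 exons made up 30.4% of the members (38 genes), 10.4% of the genes within the limits and 29.8% of all protein-coding genes. Pairs of neighbours within 200000 bases were CSRNP1 with XIRP1, and LMCD1 with OXTR, on chromosome 13, and MIDN with SBNO2 on chromosome 2.

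Promoter windows from 250 bases before to 50 bases after the RefSeq start were searched on both strands for 14 motifs. The palindromic cAMP response element TGACGTCA was in 7.2% of the members with a window, against 3.3% of the genes within the limits and 2.3% of all 19463 promoters. The EGR site GCGTGGGCG was in 5.6% of members against 1.2% and 0.9%, and the AP-1 site TGACTCA in 5.6% against 2.6% and 3.4%. Members with the EGR site were ARC, THBS1, PTPN1, SIK1, BAG3, KLF5 and MAMLD1. The 2 promoters with the EGR site that belong to genes of the largest margins are shown first, ARC at chr4:1517736-1518035 (+ strand) and THBS1 at chr1:131746049-131746348 (- strand), with the site in capitals.
ARC: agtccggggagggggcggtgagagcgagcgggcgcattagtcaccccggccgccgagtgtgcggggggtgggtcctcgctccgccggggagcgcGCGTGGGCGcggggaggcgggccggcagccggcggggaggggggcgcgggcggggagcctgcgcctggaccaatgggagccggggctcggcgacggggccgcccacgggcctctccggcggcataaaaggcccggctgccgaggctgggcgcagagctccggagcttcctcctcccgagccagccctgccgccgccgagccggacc
THBS1: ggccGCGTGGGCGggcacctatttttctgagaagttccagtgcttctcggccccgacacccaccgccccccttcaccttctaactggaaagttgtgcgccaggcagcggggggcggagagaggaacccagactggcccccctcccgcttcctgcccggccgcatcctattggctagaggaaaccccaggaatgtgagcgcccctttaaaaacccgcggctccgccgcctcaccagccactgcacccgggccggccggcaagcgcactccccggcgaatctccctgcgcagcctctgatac
The cAMP response element is in capitals in ERRFI1 at chr6:68682580-68682879 (- strand) and in DUSP1 at chr16:51457674-51457973 (+ strand), 2 of the feedback genes followed below.
ERRFI1: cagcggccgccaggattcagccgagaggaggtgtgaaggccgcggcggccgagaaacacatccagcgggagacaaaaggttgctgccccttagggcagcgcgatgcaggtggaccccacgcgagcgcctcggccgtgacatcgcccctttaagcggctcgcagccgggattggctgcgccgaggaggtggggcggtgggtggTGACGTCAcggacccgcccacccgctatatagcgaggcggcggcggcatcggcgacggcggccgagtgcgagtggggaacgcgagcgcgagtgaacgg
DUSP1: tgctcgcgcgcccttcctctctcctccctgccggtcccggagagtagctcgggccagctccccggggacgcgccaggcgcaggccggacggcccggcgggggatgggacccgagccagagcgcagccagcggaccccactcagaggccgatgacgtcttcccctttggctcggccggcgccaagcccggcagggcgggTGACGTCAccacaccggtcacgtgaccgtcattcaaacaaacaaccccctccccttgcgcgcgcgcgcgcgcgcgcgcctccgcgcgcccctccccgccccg
XIRP1, the muscle gene with the highest counts of those followed below, holds an AP-1 site, in capitals as read on the gene's strand, at chr13:23876801-23877100 (- strand).
XIRP1: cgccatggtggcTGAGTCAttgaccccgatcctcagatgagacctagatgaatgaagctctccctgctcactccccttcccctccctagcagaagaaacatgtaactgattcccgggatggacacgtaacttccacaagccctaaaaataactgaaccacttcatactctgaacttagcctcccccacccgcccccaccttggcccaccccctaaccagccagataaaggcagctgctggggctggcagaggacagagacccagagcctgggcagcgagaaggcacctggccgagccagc

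Among the other motifs, the NF-kB site was in 10.4% of members against 6.9% of the genes within the limits and 7.0% of all promoters. The TATA box TATAAA was in 13.6% against 7.1% and 10.8%, and the CArG box in 3.2% against 1.2% and 1.5%. The E-box CACGTG was in 13.6% against 9.7% and 7.9%, and the hypoxia response element ACGTG, which lies inside that E-box, in 28.8% against 24.7% and 22.3%. The STAT site TTCNNNGAA was in 4.8% (6 members), 6.2% and 7.1%, and the C/EBP-ATF site TGATGNAAN in 1.6% (2 members), 2.0% and 2.8%. The CCAAT box was in 36%, 34.6% and 35.3%, and the GC box GGGCGG in 63.2%, 65.3% and 50.7%. The short cAMP element TGACGTAA was in 1.6%, 1.0% and 0.7%. The heat shock element was found in PDK4 alone, 0.8% of members against 0.4% in either background. A match is a run of letters in this window and does not show that a factor binds there.

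**Figure D1:**
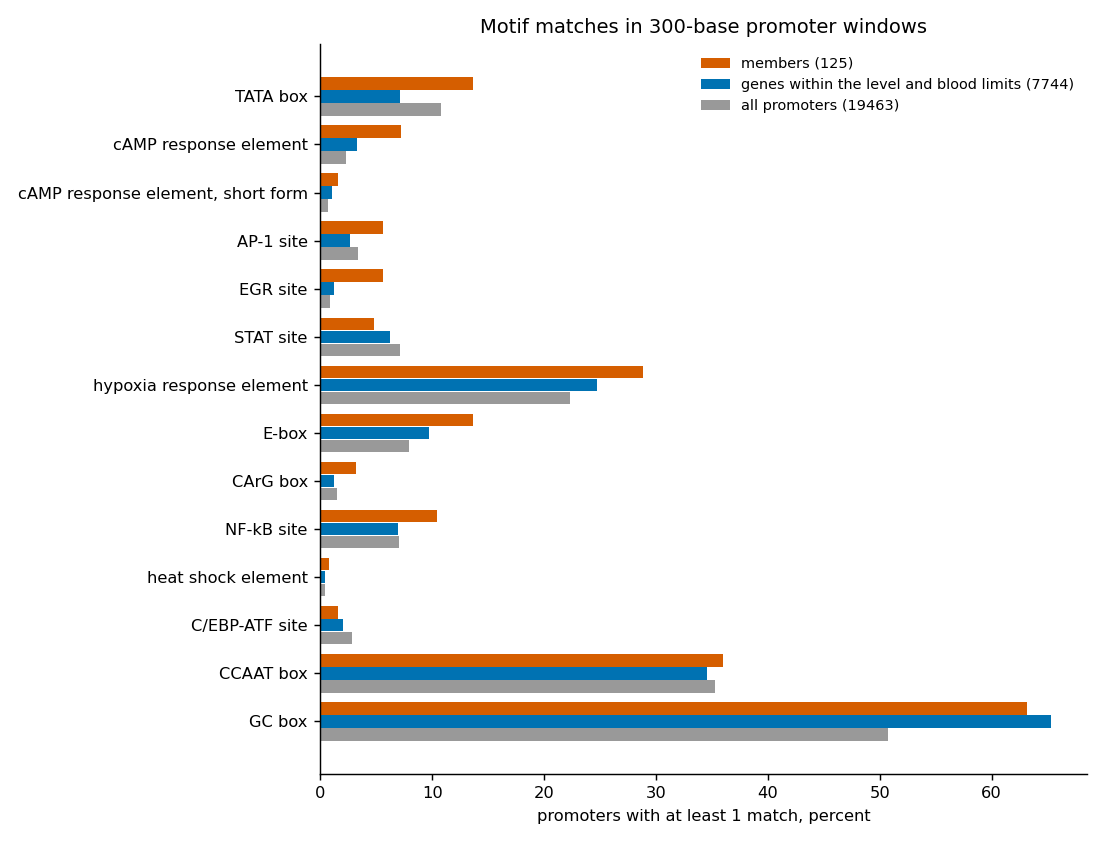
Percent of promoter windows with at least 1 match to each motif, for the members with a window, the 7744 genes within the level and blood limits and all 19463 windows. Among the 14 motifs the EGR site has the widest ratio of members to genes within the limits, 5.6% against 1.2%, and the CArG box (3.2% against 1.2%) and the cAMP response element (7.2% against 3.3%) follow.

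The mean over the members, in log2(CPM + 1), was 3.85 ± 0.30 (SD, n = 4) at baseline, 6.12 ± 0.50 at 1–3 h (n = 9), 4.0 ± 0.29 at 2 days (n = 4) and 4.13 ± 0.46 at 14 days (n = 7) in the apical region. The choice of genes used these groups. Every library of 1–3 h lay above every library of baseline for 68 of the members, where 0.912% of the 18097 genes tested did so, above every library of 2 days for 60 (0.868%) and above every library of 14 days for 17 (0.381%). Without the fibrous library of swine 1644 at 14 days, described below and left out after seeing the data, the count for 14 days was 64, where 1.02% of all genes did so. Every library of 1–3 h was above every library of 0–1 h for none of the members (0.0442%). Within 1–3 h the libraries of swine 1640 were the lowest, from 5.18 to 6.01, against 6.20 to 6.39 in swine 1644 and 6.18 to 6.73 in swine 5385. Swine 1640 had the lowest mean of the 3 animals for all but 38 of the members, and swine 5385 the highest for 77.

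**Figure D2:**
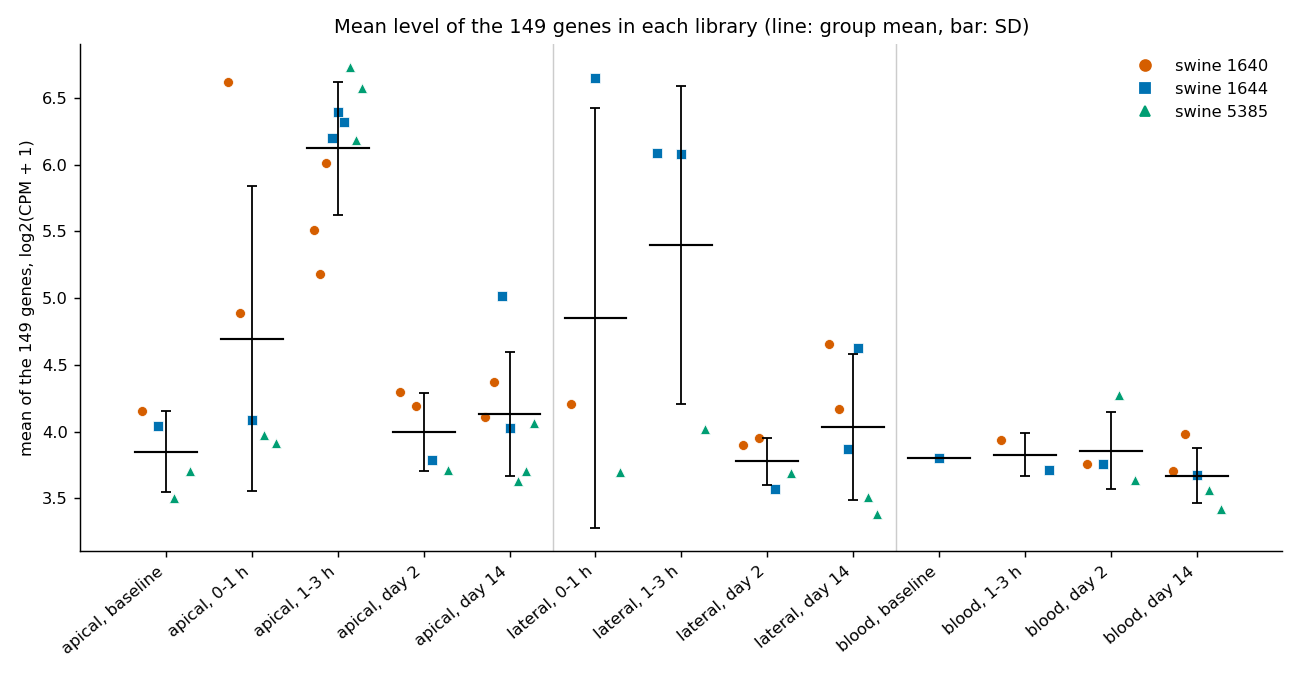
Mean of the members in each of the 57 libraries, in log2(CPM + 1), by group and swine. Lines and bars are the mean and SD over libraries; the 9 apical libraries of 1–3 h sit between 5.18 and 6.73, and the lateral libraries of swine 1644 at 0–1 h and 1–3 h reach 6.65 and 6.09 while those of swine 5385 stay at 3.70 and 4.02.

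Genes of clotting and fibrinolysis were among the members. THBS1, an adhesive glycoprotein of platelets and matrix, was at 63.5, 76.3, 86.7 and 108.7 CPM at baseline and between 657 and 6615 CPM (median 875) at 1–3 h, with no overlap. SERPINB2, a member of the serpin family, went from 0.295, 19.5, 20.1 and 20.4 CPM at baseline to between 6.03 and 770 (median 464), and its groups overlapped through a single library of swine 1644.

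The set contains 15 of the 28 immediate early genes on the list used here. Their mean was 3.24 ± 0.09 at baseline (SD, n = 4), 6.47 ± 0.76 at 1–3 h (n = 9) and 3.26 ± 0.32 at 2 days (n = 4). MAFF was at 1.17, 1.94, 3.00 and 5.71 CPM at baseline, between 12.7 and 196 (median 46.2) at 1–3 h, and at 1.30, 2.04, 2.70 and 3.35 at 2 days. FOSL1 was at 0, 0, 0.197 and 0.420 CPM at baseline and between 2.91 and 176.3 (median 45.6) at 1–3 h. ARC was at 0, 0, 0.240 and 1.48 CPM at baseline and between 0.656 and 185.8 (median 48.5) at 1–3 h, overlapping at a single library of swine 1640. EGR3, a zinc finger factor of the EGR family, was between 2.63 and 41.5 CPM (median 29.2) at 1–3 h and at most 2.34 at baseline.

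Feedback regulators were members as well. DUSP1 was at 10.4, 10.6, 12.9 and 19.2 CPM at baseline and between 28.7 and 202.7 (median 57.7) at 1–3 h. ZFP36 was at 14.9, 19.03, 25.5 and 33.6 CPM at baseline and between 49.3 and 299 (median 74.1) at 1–3 h, and TRIB1, a pseudokinase that directs protein degradation, went from 17.1, 17.5, 17.5 and 27.4 to between 49.0 and 153.2 (median 110). For all 3 the libraries of 1–3 h lay above all of baseline. ERRFI1 did so too, from 4.84, 10.7, 16.6 and 18.3 CPM to between 40.04 and 1351 (median 117.7).

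Genes of metabolism and of muscle cells formed another group of members. PDK4 was at 16.9, 21.2, 52.5 and 181.96 CPM at baseline and at 2.01 in 1 library and between 132 and 2004 in the other 8 libraries of 1–3 h. ANGPTL4, a secreted inhibitor of lipoprotein lipase, was at 5.96, 7.51, 14.6 and 151.8 CPM at baseline and between 21.8 and 366 (median 99.3) at 1–3 h. XIRP1, an actin-binding protein of the intercalated disc, was at 425, 429 and 470 CPM in 3 baseline libraries and 1.38 in the remaining library, and at 1–3 h at 3.02 in 1 library and between 1367 and 9328 in 8. The baseline library low in XIRP1 was fibrous and was the highest of baseline for PDK4 and ANGPTL4. Without the fibrous libraries of baseline and 1–3 h, the libraries of 1–3 h lay above baseline for XIRP1, PDK4 and ANGPTL4. The low values at 1–3 h came from a biopsy with little muscle RNA, described below.

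Receptors, growth factors and matrix genes were found in the set too. OSMR was at 11.02, 14.3, 38.4 and 65.6 CPM at baseline and between 97.0 and 306 (median 174) at 1–3 h. CD44, the receptor for hyaluronan, went from 19.9, 24.7, 28.4 and 28.8 CPM to between 40.5 and 309 (median 182.06), and HBEGF from 2.26, 3.84, 5.96 and 10.4 to between 14.8 and 140 (median 45.9). The groups did not overlap in any of these 3. LIF, a cytokine of the interleukin-6 family and the single member from the cytokine list, was at 0, 0, 1.14 and 2.26 CPM at baseline and between 2.61 and 46.9 (median 5.91) at 1–3 h. HAS1 was at 3.01, 3.13, 5.28 and 14.5 CPM at baseline and between 8.15 and 209.5 (median 13.5) at 1–3 h, with overlap.

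Stress and growth arrest genes were also members. SRXN1, which repairs oxidised peroxiredoxins, was at 0.167, 0.596, 2.40 and 2.85 CPM at baseline and between 6.19 and 126 (median 54.8) at 1–3 h. GADD45G, of the growth arrest family, was at 11.4, 11.7, 15.2 and 27.04 CPM at baseline and between 62.5 and 129.01 in 8 libraries of 1–3 h, with 18.1 in the remaining library. CDKN1A, the cell cycle inhibitor p21, was at 4.84, 9.15, 10.7 and 11.02 CPM at baseline and between 11.8 and 70.9 (median 27.2) at 1–3 h. SRXN1 and CDKN1A did not overlap, and GADD45G did through its lowest library. PFKFB3, an activator of glycolysis, was at 20.5, 25.9 and 38.2 CPM in 3 baseline libraries and 336 in the remaining library, a fibrous biopsy. At 1–3 h it was between 52.97 and 637 (median 153.4), and the groups overlapped through that fibrous baseline library. GADD45A was at most 17.7 CPM at baseline and between 20.2 and 125.8 at 1–3 h, and RELB at most 25.8 and then between 28.5 and 92.5, both without overlap. IL4R, PTGS2, ADM, DUSP10 and DDX21 overlapped between baseline and 1–3 h, with medians at 1–3 h of 204.9, 9.78, 11.14, 44.9 and 96.5 CPM in this order.

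The chaperone members were HSPH1 and BAG3, out of 24 genes on the heat shock list. HSPH1 was at 13.6, 14.5, 15.5 and 20.2 CPM at baseline and between 29.3 and 1269 (median 126) at 1–3 h. BAG3, a co-chaperone that clears damaged sarcomere proteins, was at 58.1, 58.6, 64.1 and 73.1 CPM at baseline and between 147.7 and 1532 (median 219) at 1–3 h. The highest 3 libraries for HSPH1 at 1–3 h, at 201.7, 479 and 1269 CPM, were the 3 of swine 5385, and neither gene overlapped with baseline.

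**Figure D3:**
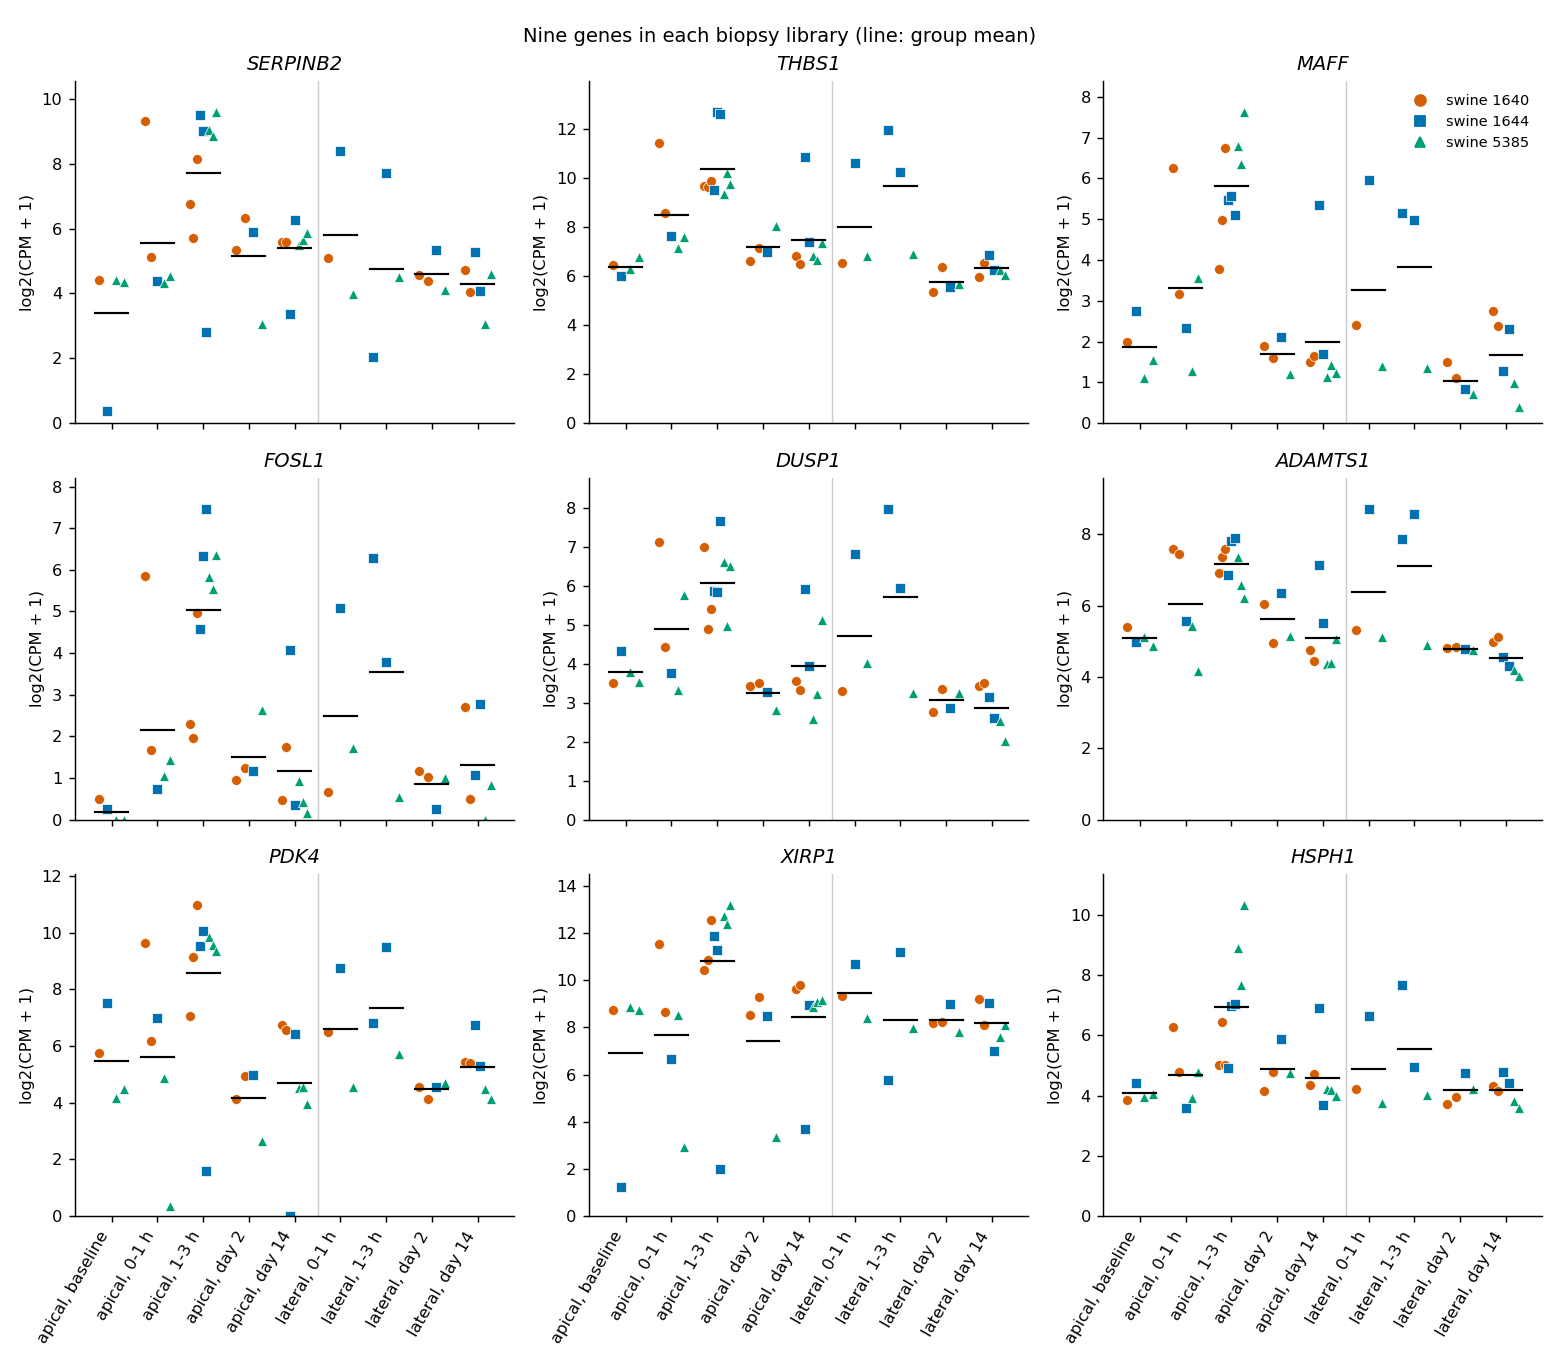
Level of 9 members in each of the 45 micro-EMB libraries, in log2(CPM + 1), with the group mean as a line and the swine as colour and shape. The apical means of THBS1, MAFF and FOSL1 are highest at 1–3 h (9 libraries). PDK4, XIRP1 and SERPINB2 drop in single libraries with little muscle RNA, but in the fibrous library of baseline PDK4 does not drop. For THBS1, MAFF and FOSL1 the lateral libraries of swine 1644 at 0–1 h and 1–3 h lie above those of swine 5385.

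Of the 9 apical libraries at 1–3 h, 1 of swine 1644 was fibrous. Its summed cardiomyocyte markers were at 48.8 CPM, where the group's median was 15520, and its summed fibroblast markers were at 83920 CPM against a median of 3557. In it, 27 members lay below all 8 other libraries and 60 above them, and 20.7% and 24.3% of the 9267 genes within the limits did so. Below were XIRP1 (3.02 CPM against a median of 4583 in the others), PDK4 (2.01 against 747) and SERPINB2 (6.03 against 492). Above were ERRFI1 (1351 CPM against 107.98), HK2 (hexokinase 2, 567.8 against 76.2), HAS1 (a hyaluronan synthase, 209.5 against 13.1) and LMCD1 (2061 against 452). The set thus held members that were low and members that were high in a biopsy with little muscle RNA. The share of members below was no larger than that of the genes within the limits, and the share above was larger. This library was 1 of the 9 whose mean chose the members. A high level in it adds to the margin and a low level takes from it, so these shares are partly built in.

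A similar biopsy stood out at 14 days. The fibrous library of swine 1644 had a mean of 5.02 over the members, where the other 6 libraries of 14 days lay between 3.63 and 4.37. It held THBS1 at 1835 CPM and MAFF at 40.04, within the range of 1–3 h, while the next highest library of 14 days for MAFF held 2.24 CPM. PDK4 was at 0 in it. Of the 45 micro-EMB libraries, 6 stood apart in this way on the second principal component, with at most 1 in any group.

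During the occlusion the apical libraries were divided. The mean of the members at 0–1 h was 3.92, 3.97, 4.09, 4.89 and 6.62 log2(CPM + 1). The highest value and the next were the 2 libraries of swine 1640, and the other 3 lay within the range of baseline, 3.50 to 4.15. In the highest library, all but 12 of the members were above every baseline library and 21 were above every one of the 9 libraries of 1–3 h. The 15 immediate early genes had a mean of 7.81 in it, and 6 of them exceeded all 9 libraries of 1–3 h, while none of the 3 clotting genes did. In the other library of swine 1640 the 15 immediate early genes were at 5.12, and all 15 were above every baseline library. Baseline and 1–3 h were used to choose the members, so a level above baseline is partly built in. For the counts here and in the next paragraph the share over all genes was not computed, and they serve as description only.

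Single genes followed the same division. MAFF at 0–1 h was at 1.42, 4.02, 7.92, 10.9 and 74.9 CPM, and FOSL1 at 0.670, 1.07, 1.72, 2.17 and 56.8. ARC reached 693 CPM in the highest library, above its highest value of 185.8 at 1–3 h. ANGPTL4 was at 2.86, 7.35, 14.9, 21.4 and 43.4 CPM, below its median of 99.3 at 1–3 h in every library. Over the members the group mean at 0–1 h was above that of baseline for 140 and above that of 1–3 h for 1 (SLC6A17, named after its values were seen), and the median difference from baseline was 0.73 at 0–1 h and 2.03 at 1–3 h on the log2(CPM + 1) scale. The smallest gaps between 0–1 h and 1–3 h among immediate early genes were those of EGR2 (2.09 and 2.48 above baseline) and FOS (2.11 and 2.79), named after their values were seen, and wide gaps were those of XIRP1 (0.77 and 3.91) and PDK4 (0.14 and 3.10). Of the 5 libraries of 0–1 h, 1 of swine 5385 was fibrous and held 0.286 CPM of PDK4 and 6.57 of XIRP1. Without the fibrous libraries, which leaves 3 of baseline, 4 of 0–1 h and 8 of 1–3 h, the values were 0.07 and 3.13 for XIRP1 and 2.13 and 4.65 for PDK4, and the medians over the members 0.99 and 2.09. The minute at which each biopsy was taken is not in the labels.

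**Figure D4:**
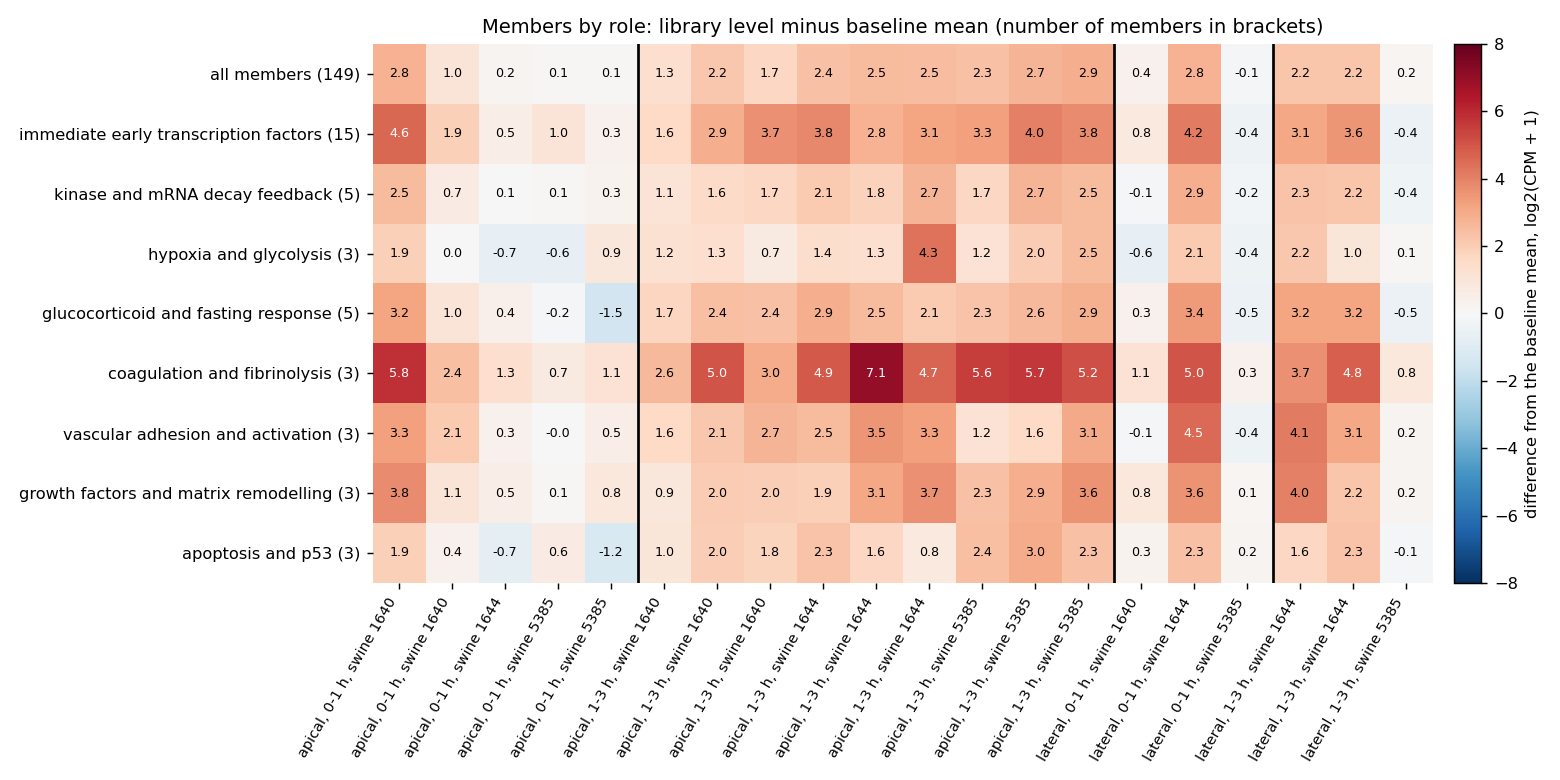
Mean of the members of each role in the 20 micro-EMB libraries of 0–1 h and 1–3 h, minus the baseline mean, in log2(CPM + 1); columns are libraries by region, time and swine. At 0–1 h the highest apical library (swine 1640) and the lateral library of swine 1644 exceed the baseline by 2.8 over all members, and the clotting and fibrinolysis members reach 7.1 in a library of swine 1644 at 1–3 h.

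Whether the genes also moved in libraries labelled lateral could be tested, because no lateral library entered the choice. The study reports far fewer regulated genes in the lateral than in the infarcted region. It also found lateral samples of a single animal that clustered with early infarcted samples. It proposes that inaccurate sampling is the most likely reason, with these biopsies coming from the infarct or near it. Whether the lateral libraries used here came from outside the infarct was not tested. At 1–3 h the lateral region was compared with the lateral region at 2 and 14 days (3 libraries against 10) by edgeR's quasi-likelihood test over 18097 genes, in a fit of all 45 micro-EMB libraries. All members passed the filter on low counts. Of these, 41 were called higher at an adjusted p of at most 0.05 and none lower, where 0.939% of all genes tested were called higher. The fit and the filter took in the apical libraries too. With only the lateral libraries in the fit 0 members were called (smallest edgeR adjusted p over all genes 0.054), as with counts summed per swine (0.10) and against 2 days alone (0.21). The median log2 fold change was 1.88 for the members and -0.14 for all genes, all but 5 members had a fold change above 0 (40.3% of all genes did), and all but 40 were higher at an unadjusted p under 0.05 (6.76%) and none lower (0.901%). All 3 libraries of 1–3 h were above all 10 later libraries for 5 members (0.166%), THBS1, GADD45A, DDX21 and a pair without a symbol, picked out after their values were seen.

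The mean over the members was above the later range in both libraries of swine 1644 and within it in that of swine 5385. In swine 1644 the 2 lateral libraries at 1–3 h had means of 6.08 and 6.09 over the members, and the library of swine 5385 had 4.02, where the 10 later lateral libraries lay between 3.38 and 4.66. In the library of swine 1644 with a muscle profile, all but 40 members exceeded all 10 later libraries (6.37% of all genes), and in its fibrous library all but 35 did (24.5%). In that of swine 5385, 6 did (1.08%). Without the libraries of swine 1644 a single library was left at 1–3 h, with its spread taken from the other groups. In that fit none of the members was called, none had an unadjusted p under 0.05 in the direction higher, the median log2 fold change was -0.04 and 69 members were above 0. With swine as a block no member was called either, although 99 passed an unadjusted p of 0.05 and the median was 1.63. Swine 1640 gave no usable lateral library at 1–3 h.

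The call with the smallest p was ANGPTL4, at 6.52, 162.4 and 238 CPM in the lateral libraries of 1–3 h, at 4.79, 4.97, 5.80 and 8.38 at 2 days and between 2.31 and 15.1 (median 9.68) at 14 days. Its log2 fold change was 4.20 ± 0.73 (SE, edgeR adjusted p = 0.0036). EMP1, an epithelial membrane protein, was at 50.4, 209.4 and 1409 CPM against 26.5 to 73.8 at 14 days, with a log2 fold change of 3.41 ± 0.59 (edgeR adjusted p = 0.0036). DUSP1 was at 8.54, 60.9 and 254 CPM against 3.08 to 10.3 at 14 days, with a log2 fold change of 3.70 ± 0.68 (edgeR adjusted p = 0.0040). In each of the 3 genes the lowest of the 3 lateral libraries was that of swine 5385 and lay within the later range. PHLDA2 (a pleckstrin-homology protein) had a log2 fold change of 5.31 ± 0.95 and DDX21 (an RNA helicase of ribosome formation) of 2.18 ± 0.40, both with an edgeR adjusted p of 0.0040. With swine as a block the adjusted p of these 5 genes was between 0.074 and 0.080.

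Read by role, 11 of the 23 immediate early genes tested from the list, 15 of which belong to the set, were called higher in the lateral region at 1–3 h, and the median over the list was 2.73. The calls in this and the following lists stand beside 0.939% over all genes, and no gene at all was called with swine as a block, with counts summed per swine or with only the lateral libraries in the fit. CSRNP1, a nuclear protein induced with the AP-1 factors, was at 8.27, 83.3 and 150 CPM against at most 14.2 in the 10 later libraries (log2 fold change 3.91 ± 0.76, edgeR adjusted p = 0.0061). Of 19 kinase and mRNA-decay feedback genes 6 were called higher, with a median of 1.54, and of 15 clotting and fibrinolysis genes 4 were, with a median of 1.71. THBS1 had a log2 fold change of 4.52 ± 0.87 (edgeR adjusted p = 0.0058). Of 18 cytokine receptor and JAK-STAT genes 5 were called, among them OSMR, the receptor subunit for oncostatin M (2.64 ± 0.57, edgeR adjusted p = 0.016), and IL4R (2.12 ± 0.50, 0.029).

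Of 14 vascular activation genes 3 were called higher, with a median of 1.53. ADAMTS4 (5.52 ± 1.13, edgeR adjusted p = 0.0099) and ADAMTS1 (3.19 ± 0.59, 0.0040), both proteases of the matrix, and PTGS2 (inducible cyclooxygenase, 3.95 ± 0.96, 0.034) were these 3. Of 14 glucocorticoid and fasting genes 4 were called with a median of 1.01, of 15 NF-kB feedback genes 3 (0.80), of 20 growth factor and matrix genes 1 (1.59) and of 13 oxidative stress genes 1 (0.32). RELB, an NF-kB subunit, had a log2 fold change of 1.42 ± 0.46 (edgeR adjusted p = 0.18) and HBEGF, a ligand of the EGF receptor, of 2.42 ± 0.71 (0.10). These medians stand beside the median of -0.14 over all genes.

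No gene was called in the lists of heat shock chaperones (20 tested, median 0.33), the unfolded protein response (14, 0.75), hypoxia and glycolysis (14, 0.37), apoptosis and p53 (14, 0.92), cytokines and chemokines (9, 0.03), the circadian clock (12, -0.34) and cardiac stress (10, -0.01). At an unadjusted p under 0.05 in the direction higher these lists held 2, 5, 4, 7, 2, 1 and 0 genes in the same order, where 6.76% of all genes were. The lists hold 11 members. XIRP1 had a log2 fold change of 1.66 ± 1.13 and LMCD1 of 0.92 ± 0.72, and in XIRP1 the fibrous library of swine 1644 was at 53.9 CPM beside 2347 in the library of the same swine with a muscle profile. GADD45A, a growth arrest gene, had 1.99 ± 0.55 (edgeR adjusted p = 0.066), HSPH1 1.96 ± 0.80 (0.41), HK2 1.96 ± 0.63 (0.17) and ADM, the vasodilator adrenomedullin, 0.69 ± 0.72 (0.98). CRACDL, at rank 6 by margin in the infarcted region, was at 7.50, 8.21 and 11.3 CPM in the lateral libraries of 1–3 h, where the apical median was 46.6, and its log2 fold change was 0.14 ± 0.87 (edgeR adjusted p = 0.99).

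During the occlusion, the lateral region (3 libraries) was compared with the same 10 later libraries, so this comparison shares its controls with the previous one. No member was called, and no gene at all (0% of 18097). At an unadjusted p under 0.05, 95 members were higher (2.16% of all genes) and none lower (0.492%), all but 5 had a fold change above 0 (38.7%), and the median log2 fold change was 1.43 against -0.10 over all genes. DESeq2 called 18 of the members higher, where it called 26 of all 18097 genes higher. The mean of the members was 3.70 in swine 5385, 4.21 in swine 1640 and 6.65 in swine 1644, so that a single library carried the difference. In the library of swine 1644, all but 26 members exceeded all 10 later lateral libraries (8.17% of all genes), in swine 1640 20 did (2.87%) and in swine 5385 4 did (1.87%), which were DUSP1, MIDN, KDM6B and ITPRIP, named after their values were seen. For the latter 3 every lateral library of 0–1 h lay above all 10 later libraries (0.111%). Without the library of swine 1644 the median was 0.12 and no member had an unadjusted p under 0.05.

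CSRNP1 and ADAMTS4 were among the members with the smallest p-values in that comparison. CSRNP1 was at 8.30, 12.7 and 220 CPM, with a log2 fold change of 3.84 ± 0.76 (edgeR adjusted p = 0.062). ADAMTS4 was at 0.680, 3.69 and 175.4 CPM, with 5.29 ± 1.12 (edgeR adjusted p = 0.085). In both genes the highest value was that of swine 1644.

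The regions were then compared during the occlusion, 5 apical against 3 lateral libraries, none of which had entered the choice. No member was called (0% of all genes), 1 had an unadjusted p under 0.05 (lower in the apical region, where 0.403% of all genes were) and none in the direction higher (0.553%). DESeq2 called none. The median log2 fold change was -0.09 for the members, with 62 members above 0 (54.3% of all genes). The groups did not separate for any member, where 0.53% of all genes had every apical library above and 0.204% every one below. Each region held a single high library, from swine 1640 in the apical and from swine 1644 in the lateral region. Without the former the median was -1.24 and without the latter 1.23, so the sign of the difference followed which of them was kept. Among the members with the smallest p were NOCT, an enzyme under clock control (-1.39), and ANGPTL4 (-1.56), each with an edgeR adjusted p of 1.

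In swine 1644 the regions differed at 0–1 h, with 1 library of each. Its apical library had a mean of 4.09 over the members, and its lateral library 6.65. At 1–3 h its 3 apical libraries had 6.20 to 6.39 and its 2 lateral libraries 6.08 and 6.09. In swine 5385 the apical libraries went from 3.92 and 3.97 to between 6.18 and 6.73, and the lateral libraries were at 3.70 and 4.02. Over all libraries, those of the apical region at 1–3 h exceeded all 3 lateral ones of 1–3 h for 1 member, SLC19A2, named after its values were seen (0.0387% of all genes), all 4 lateral ones of 2 days for 83 (1.89%) and all 6 of 14 days for 51 (0.630%).

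Blood was followed for the same genes, of which all but 6 were tested among 18956 genes. The mean of the members was 3.81 at baseline (1 library), 3.72 and 3.94 at 1–3 h, between 3.64 and 4.28 at 2 days and between 3.42 and 3.98 at 14 days. Between 1–3 h (2 libraries) and the later times (9 libraries) no member was called by edgeR or DESeq2 (0% of all genes by edgeR), the median log2 fold change was 0.04, and 75 members were above 0 (42.6% of all genes). Both libraries of 1–3 h lay above all later ones for 6 members (2.13%). At an unadjusted p under 0.05, 12 members were higher (1.32% of all genes) and 4 lower (1.76%), which were XIRP1, CDCP1, BAG3 and DDAH1, picked out after their values were seen. Those with the smallest p were DUSP1 (log2 fold change 1.09, edgeR adjusted p = 0.84), MARCHF3, a ubiquitin ligase (1.01, 0.84), and TRIB1 (0.89, 1).

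**Figure D5:**
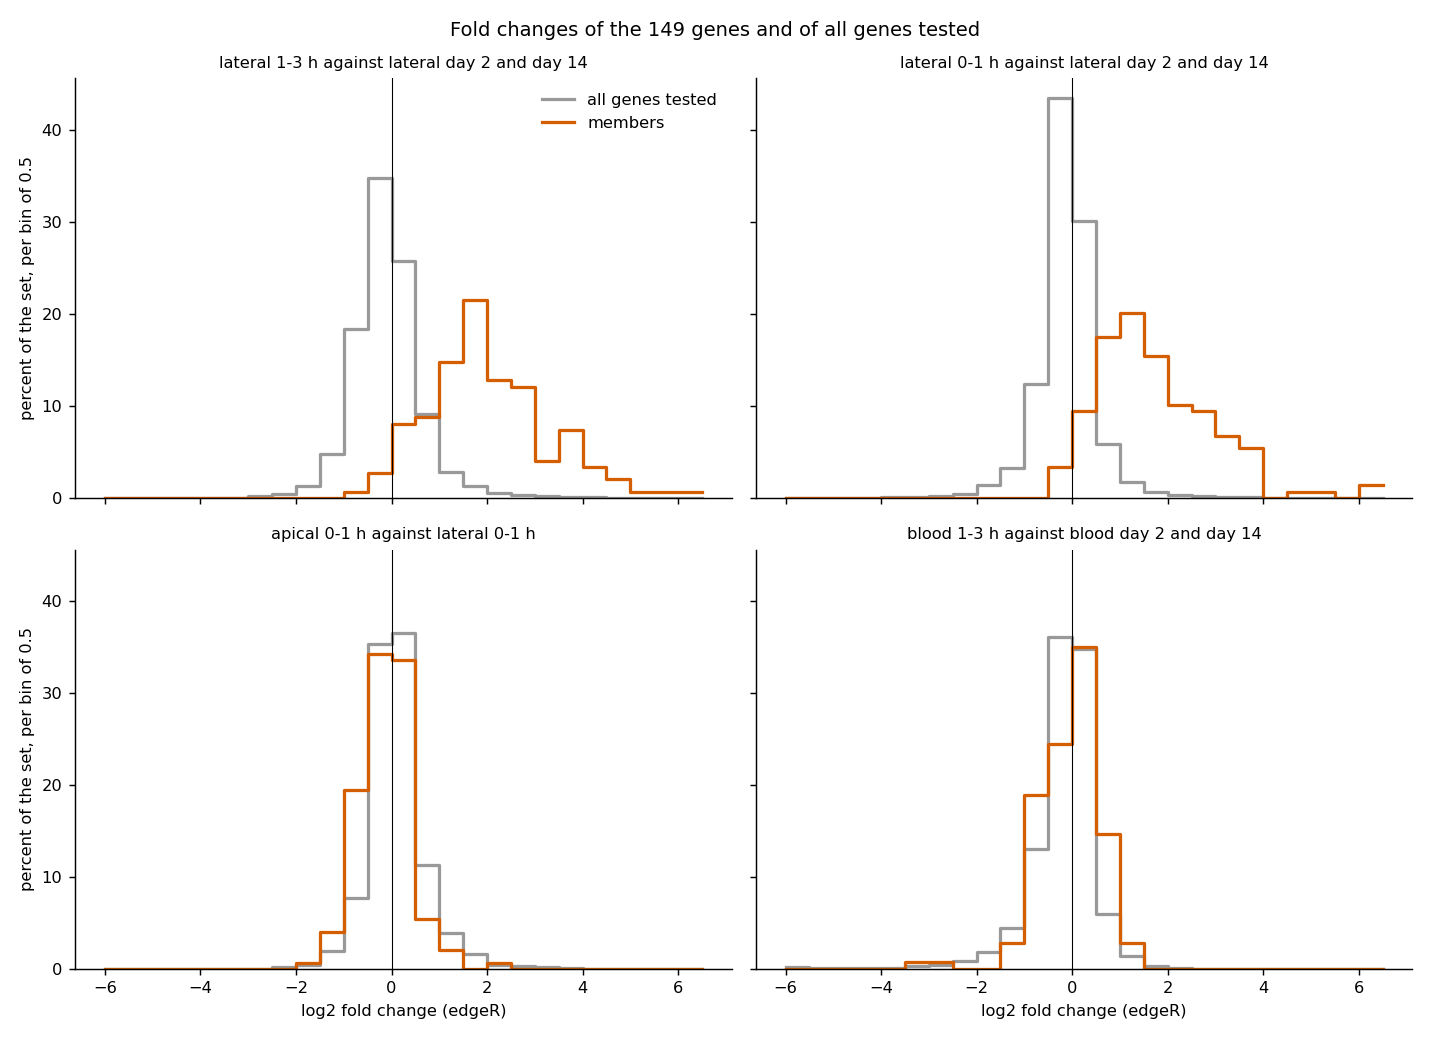
Share of the members and of all genes tested in bins of log2 fold change (edgeR) for 4 comparisons. In the lateral region the members' medians are 1.88 at 1–3 h and 1.43 at 0–1 h; in the comparison of regions at 0–1 h and in blood the medians are -0.09 and 0.04.

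Markers of other cells were set beside these levels. Summed neutrophil markers (7 of 11 listed genes measured) were at 3.67 to 9.18 CPM at baseline, 2.07 to 55.04 in the apical libraries of 1–3 h and 6.45 to 37.8 in the lateral ones, where blood libraries held 472 to 1299. Summed platelet markers (4 of 6) were at 3.25 to 10.3 CPM at baseline and 2.39 to 26.3 in the apical libraries of 1–3 h, with GP1BB at 0. Summed monocyte and macrophage markers were at 145.1 to 457 CPM at baseline and 60.2 to 446 at 1–3 h, with LYZ at 0, and endothelial markers at 967 to 1480 and 140 to 1464. Their part in the levels of the members was not tested. The cardiomyocyte markers, by which the tissue can be checked, were at a median of 17010 CPM at baseline and 15520 at 1–3 h in the apical region.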

How the data were processed

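RNA of micro-EMB and blood was extracted and made into libraries with the SMARTer Pico kit, per the labels. The authors mapped the reads with STAR to Sscrofa11.1, counted them per Ensembl gene with featureCounts and deposited raw counts for 85 libraries, with no normalization (the versions are not given in the sources used here). Counting ignored strand, and without molecular identifiers a molecule may be counted repeatedly. Libraries were grouped by region, timepoint and swine from the labels. No column was left without a sample.

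CPM used the library total. Libraries under 1000000 counts, or with under 7% or over 60% of counts in the 10 top genes, were left out (1, 25 and 2). The members, gene lists and motifs were chosen with earlier results of these data known. The genes named were the 10 members with the largest margin, up to 4 members of each list, those with the smallest p per comparison and the genes at the threshold; some genes are not reported here. Symbols came from a reference table (15029 of 31907 identifiers), and gene models and promoters from RefSeq on Sscrofa11.1 (125 members matched by symbol).

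Genes that reached 1 CPM in 20% or more of the fitted libraries were tested with edgeR 4.0.16 in R 4.3.3 (TMM, quasi-likelihood test, Benjamini-Hochberg, group as the only term), 18097 in 45 micro-EMB and 18956 in 12 blood libraries. DESeq2 1.42.0, RLE scaling, no filter, all libraries, sums per swine, a swine block, single later times, fewer libraries and leaving out each library were the alternatives. Libraries of the same swine number come from the same animal, and their deviations from the group means correlated at 0.105 on average against -0.047 between swine. No pair of 123 replicate pairs agreed within sampling noise (lowest chi-square per gene 10.8). On simulated counts with a log2 fold change of 3 set in 200 of 18097 genes, the test of lateral 1–3 h called 72% of them with 3.36% false calls. In blood it called 86% of 200 of 18956 with 6.01%. The simulated libraries were independent, with no effect of swine. These rates therefore do not carry over to calls made on repeated samples of 3 animals. Tables were handled in Python 3.11.15, and plots were drawn with matplotlib 3.10.9.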

Additional observations from a re-analysis of the deposited data

Results flagged for a closer look

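In groups of 4 to 10 libraries, the gap of the highest or lowest library to its neighbour was set against the range of the group, for the mean of the members and each gene named here by the rule. Of 378 sets of a gene and a group, 38 had a library apart, 25 at the high end. For normal values chance gives about 1 in 20 for a single set. The sets share the same few libraries and are not independent, so the count cannot be weighed against that rate. Values are log2(CPM + 1). A library can be apart by a small gap where the rest of its group agree closely. The apical library of 0–1 h numbered 4 (swine 1640) was far above the rest of its group in FOSL1 (5.85), SERPINB2 (9.32) and TRIB1 (7.86). The apical library of 14 days numbered 5 (swine 1644) was far above the rest of its group in MAFF (5.36), FOSL1 (4.06), ERRFI1 (7.27), THBS1 (10.84), SRXN1 (3.69), NOCT (5.44), HSPH1 (6.88), OSMR (6.92), ADAMTS4 (5.03), HAS1 (5.74), BAG3 (7.45), PFKFB3 (8.07), ADAMTS1 (7.13) and IL4R (7.56) and far below it in PDK4 (0.00), XIRP1 (3.69) and SERPINB2 (3.37). The apical library of 1–3 h numbered 6 (swine 1644) was far above the rest of its group in ERRFI1 (10.40) and HK2 (9.15) and far below it in PDK4 (1.59), XIRP1 (2.00) and GADD45G (4.25). The apical library of 1–3 h numbered 11 (swine 1640) was far below the rest of its group in CRACDL (3.31). The apical library of 2 days numbered 6 (swine 5385) was far above the rest of its group in FOSL1 (2.64) and PTGS2 (2.22) and far below it in XIRP1 (3.34) and GADD45G (1.74). The baseline library numbered 1 (swine 1644) was above the rest of its group in TRIB1 (4.83, the others 4.18 to 4.21). It was far below them in XIRP1 (1.25) and SERPINB2 (0.37). The blood library of 14 days numbered 4 (swine 1640) was above the rest of its group in ARC (0.92, under 1 CPM, the others 0). The blood library of 2 days numbered 1 (swine 5385) was above the rest of its group in SERPINB2 (2.59, the others 0.29 to 0.66). In PHLDA2 it was above them at 0.93, under 1 CPM, with the others at 0. The blood library of 2 days numbered 4 (swine 1640) was below the rest of its group in BAG3 (3.11, the others 3.62 to 3.63). The lateral library of 2 days numbered 6 (swine 1640) was below the rest of its group in DUSP10 (2.56, the others 3.18 to 3.26). The apical libraries numbered 6 at 1–3 h and at 2 days, 5 at 14 days and 1 at baseline are fibrous biopsies. Whether that accounts for these values was not tested.

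Among the libraries left out for an even count profile, the 2 apical ones of 1–3 h had a mean of 4.63 over the members (4.58 and 4.68), above the left-out baseline library at 4.51. They lay inside the range of 4.40 to 4.88 of the 10 left-out micro-EMB libraries of baseline, 2 days and 14 days.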

How the results depend on the processing

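The 41 members called higher in the lateral region at 1–3 h depended on the fit. The count was 31 with RLE scaling, 34 with no filter and 49 with DESeq2. It was 0 with swine as the replicate block (the paired fit), 0 with counts summed per swine, 0 with all libraries of at least 1000000 counts, 0 with only the lateral libraries in the fit and 0 against 2 days alone. Against 14 days alone it was 14 (63 over all genes), and 19 (36 over all genes) without the 6 fibrous libraries. Leaving out single libraries gave 1 to 77 calls. Without the fibrous and the other library of swine 1644 the count was 1 and 9 (1 and 74 over all genes). Without that of swine 5385 it was 77 (471 over all genes). Without 1 of 3 lateral libraries of 2 days (swine 5385, 1644 and 1640) it was 12, 18 and 21 (44, 65 and 74 over all genes). Without both libraries of swine 1644, an alternative chosen after seeing the data that leaves 1 library and assumes that it varies like the other groups, it was 0 and the median log2 fold change turned to -0.036. Otherwise the median stayed between 1.31 and 2.33. The cause of these shifts was not tested.

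For the lateral region at 0–1 h, 0 members were called. The count was 18 with DESeq2, 3 with all libraries of at least 1000000 counts and 7 without the fibrous libraries. Over all genes these fits called 26, 3 and 13 higher. Leaving out single libraries gave 0 to 14 members, with 14 and 12 without the libraries of swine 5385 and 1640 (29 and 26 over all genes). The block gave 0. The comparison of regions at 0–1 h and that in blood gave 0 calls under every alternative, the block included. Usable libraries held 3499443 counts or more. The 3 animals, of which 2 gave the lateral libraries of 1–3 h, limit the tests, as does a spread between libraries of 0.67 (biological coefficient of variation).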
